A study of Homo sapiens with 6 samples.

Results

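The genes described here are the 5 NF-κB subunits NFKB1, NFKB2, REL, RELA and RELB, and 5 genes grouped as inhibitors, NFKBIA, NFKBIB, NFKBIE, NFKBIZ and TNFAIP3. They were taken by gene symbol, which gave 10 of the 60498 genes in the table, and all 10 were among the 15126 genes analysed, those whose mean over the libraries reached 10 counts. RNA was sequenced from SKOV3, an established ovarian cancer cell line, in 3 versions that differ at STING1, the gene of the receptor for the cyclic dinucleotide cGAMP. The parent cells were WT/HAQ, with 1 WT allele and 1 allele of the common HAQ haplotype, and the WT/- and HAQ/- lines, each a single clone obtained with a pair of Cas9 guides, puromycin selection and limiting dilution, kept only the allele in their name. Cells given 2’3’-cGAMP received 10 μg/mL for 30 min in a digitonin permeabilization buffer and rested for 4 h, while the handling of the control cells is not described in the methods. Each line gave 1 control and 1 cGAMP library, so the spread between cultures of a line was not measured, and allele and clone cannot be told apart.

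NF-κB is a family of dimeric transcription factors held in the cytoplasm by IκB proteins. Receptors for TNF, IL-1 and microbial products, and also STING, activate the IKK kinases, which mark IκB for destruction and free the dimers to enter the nucleus. Several genes of the pathway are themselves NF-κB targets, above all the inhibitors NFKBIA, NFKBIE and TNFAIP3, which close feedback loops on the signal.

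The libraries held between 12444791 and 17608427 counts. STING1, listed under its older symbol TMEM173, had 669 normalized counts in the WT/HAQ control, 353 in the WT/- control and 213 in the HAQ/- control, and 1780, 553 and 403 with cGAMP. IFNB1, which encodes interferon β, went from 4.42 to 1259 normalized counts in the parent, from 1.87 to 2583 in WT/- and from 5.23 to 16.4 in HAQ/-, and all 12 of a list of interferon and interferon-response genes that includes IFNB1 passed the test of cGAMP upwards, as did 2.27% of all genes. All 8 markers of ovarian carcinoma epithelium were analysed, and their summed level lay between 72634 and 112902 normalized counts. Their control levels were between 0.0647 and 1.39 of the parent's in WT/- and between 0.0735 and 1.02 in HAQ/-, with KRT19 at the low end of both. With cGAMP 0 of the 8 passed the edgeR test. There 1 was higher at an unadjusted p under 0.05, against 11.6% of all genes, and 3 were lower, against 13.7%. DESeq2 called 0 higher, against 5.2% of the genes it tested, and 2 lower, against 3.93%. PAX8, with folds of 0.291, 0.529 and 0.71, and KRT7, with folds of 0.499, 0.631 and 0.777, were lower in each line as were several of the 10 genes, and their part in the results was not tested. MUC16 and EPCAM were higher in each line, with folds of 2.35, 2.86 and 1.67 and of 1.05, 1.07 and 1.09. MUC16 had no more than 72 counts in a library, and 1 and 4 counts in HAQ/-. These epithelial markers were picked after their values were seen. Of 11 markers of leukocytes, endothelium and fibroblasts, 4 were analysed. The leukocyte markers PTPRC, CD3E and LYZ lay between 0 and 2.85 normalized counts in all 6 libraries, and CD68, COL1A1 and DCN were present in all 6. CD68 had folds of 1.64, 1.52 and 1.23 with cGAMP (edgeR adjusted p = 0.0648). Of the 4 analysed, 1 was higher at an unadjusted p under 0.05 in edgeR, against 11.6% of all genes. DESeq2 called 1 higher, against 5.2% of the genes it tested.

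The control levels of the 10 genes followed 1 order, which was noticed after the values were seen. All 10 were highest in WT/-, intermediate in WT/HAQ and lowest in HAQ/-, an order that 22.7% of all analysed genes had. Without cGAMP the 10 genes together took 0.401% of all counts in WT/-, 0.18% in WT/HAQ and 0.0739% in HAQ/-. TNFAIP3 alone held 32740 of these 68340 counts in WT/-, 11363 of 31630 in WT/HAQ and 1384 of 12586 in HAQ/-. With cGAMP, NFKB1 and NFKBIE passed the test across the lines downwards, as did 0.959% of all genes, and NFKB1 was called in only 5 of 9 alternative fits. None of the 10 passed the test upwards, against 2.27% of all genes, and NFKBIZ was the 1 member with a level at least 1.5-fold higher in each line, as were 3.12% of all genes. Each line was compared with its own control, and the test across lines was edgeR's quasi-likelihood test with the line as a block.

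**Figure D1:**
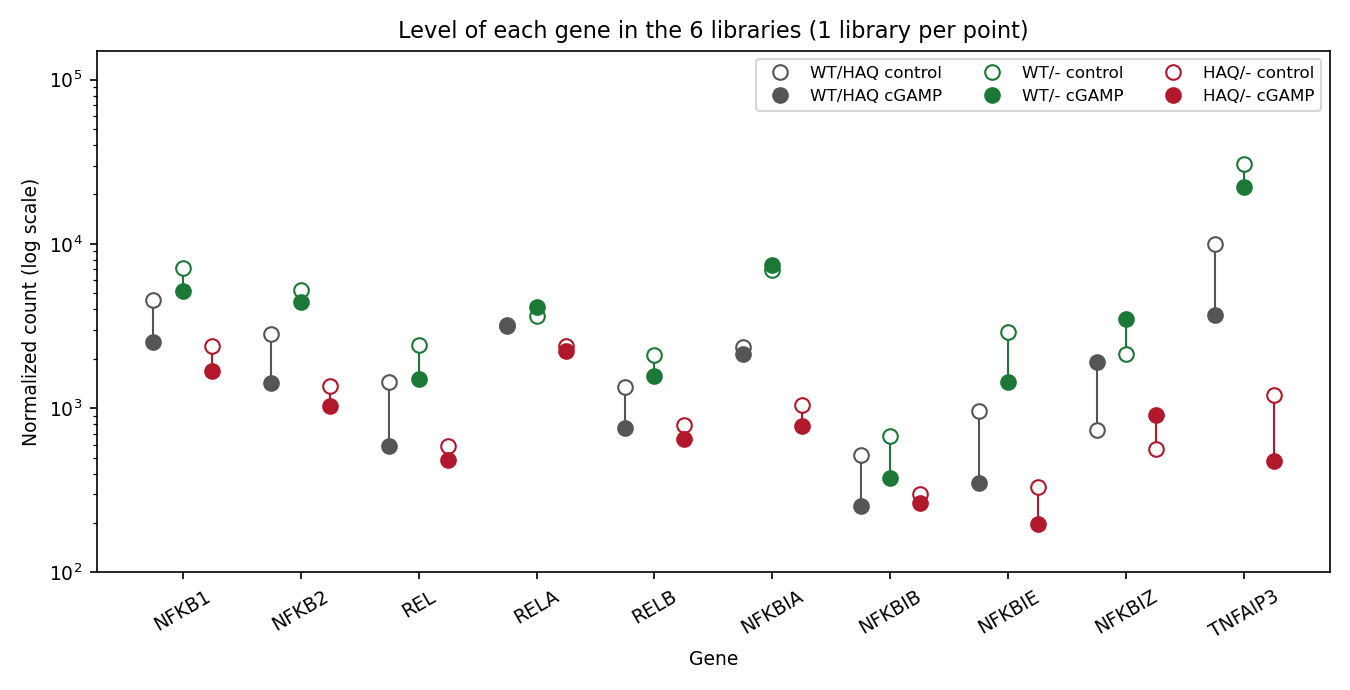
Normalized counts (log scale) of the 10 genes in the 6 libraries, with open points for control and filled points for cGAMP libraries, and 1 library per point. Green WT/- controls lie above grey WT/HAQ controls and red HAQ/- controls for all 10 genes, and NFKBIZ is the gene whose filled points lie above the open points by at least 1.5-fold in all 3 lines.

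The start regions of these genes were searched for letters that NF-κB is known to bind, a search chosen after the values were seen. RefSeq promoter windows (GRCh38.p14, from 250 bases before to 50 bases after a start) matched 8 of the 10 genes, all but RELB and NFKBIE. Both strands were searched. The κB consensus was present in 7 of the 8 genes, all but RELA, and in 13.3% of the 27305 genes with a window. The 8 genes had from 1 to 3 windows each, and a gene with more windows has more room for a match. Over all genes there were 35116 windows, of which 11.3% held the consensus. The palindromic κB core GGAANTTCC, which overlaps the consensus, was present in NFKB1, REL, NFKBIA, NFKBIB and NFKBIZ, 5 of the 8, and in 1.16% of all genes. In the stretches below, read along the gene's own strand, capitals mark the κB consensus, and distances are to the RefSeq start named, which can lie inside the gene's span in GENCODE, as it does for NFKB1, NFKB2, REL, NFKBIB and TNFAIP3. A window at an earlier NFKB2 start, 102394578, held 3 more matches, and 1 further match lay 176 bases before the NFKB2 start named. NFKBIB had another match 38 bases after its start, and NFKBIZ another 239 bases before a second start at 101849514. These further matches are not shown.
NFKB1, chr4:102501285-102501344, plus strand, match 49 bases before the start at 102501359: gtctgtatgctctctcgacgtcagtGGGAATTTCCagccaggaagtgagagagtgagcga
NFKB2, chr10:102395659-102395704, plus strand, match 21 bases before the start at 102395705: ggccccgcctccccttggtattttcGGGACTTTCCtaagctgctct
REL, chr2:60881518-60881546, plus strand, overlapping matches from 47 bases before the start at 60881574: gtcagccgcGGGAAATTCCCctcccgcca
NFKBIA, chr14:35404796-35404855, minus strand, match 81 bases before the start at 35404749: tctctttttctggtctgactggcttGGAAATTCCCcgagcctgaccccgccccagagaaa
NFKBIB, chr19:38899916-38899968, plus strand, overlapping matches from 28 bases before the start at 38899969: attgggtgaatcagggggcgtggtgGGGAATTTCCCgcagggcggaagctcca
NFKBIZ, chr3:101827742-101827801, plus strand, match 223 bases before the start at 101827990: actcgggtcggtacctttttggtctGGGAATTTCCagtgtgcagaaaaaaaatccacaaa
TNFAIP3, chr6:137867167-137867238, plus strand, a pair of matches from 67 bases before the start at 137867259: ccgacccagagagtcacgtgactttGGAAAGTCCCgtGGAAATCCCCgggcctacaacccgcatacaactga
A match of letters is a description of these windows, and binding was not measured. GAAANNGAA, the core of the element that interferon regulatory factors bind, was present in NFKBIA, NFKBIZ and RELA, 3 of the 8 genes against 9.86% of all genes, and TGANTCA, the AP-1 site, in NFKBIB alone against 9.37%. The NFKBIZ match, with capitals on this core, is shown as the one nearest to a start. Neither NFKBIA nor RELA, which also hold the core, reached 1.5-fold with cGAMP in any line, and NFKBIZ missed the edgeR threshold. Whether this core has a part in any of these folds was not tested.
NFKBIZ, chr3:101827924-101827982, plus strand, match 41 bases before the start at 101827990: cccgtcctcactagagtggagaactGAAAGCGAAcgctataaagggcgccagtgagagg

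RELA, which encodes p65, the main activating subunit of the classical pathway, was the steadiest member. RELA (chromosome 11, 65653599 to 65663090, minus strand) had 3212 normalized counts in the WT/HAQ control and 3157 with cGAMP. It had 3665 and 4102 in WT/-, and 2379 and 2222 in HAQ/-. The folds were 0.983 (95% Wilson interval on the counts 0.938 to 1.03), 1.12 (1.07 to 1.17) and 0.934 (0.882 to 0.989), and these intervals, as all those given here, cover counting error only. Across the lines the log2 fold change was 0.01 ± 0.08 (SE), with an adjusted p of 0.939 in edgeR's quasi-likelihood test with Benjamini-Hochberg adjustment. RELA also had the smallest ratio of the 10 between the WT/- and HAQ/- controls, 1.54 (1.47 to 1.62).

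NFKB1, which encodes the precursor p105 and the DNA-binding subunit p50, fell with cGAMP. NFKB1 (chromosome 4, 102501330 to 102617302, plus strand) had 4530 normalized counts without and 2531 with cGAMP in WT/HAQ. It had 7124 and 5180 in WT/-, and 2402 and 1690 in HAQ/-. Each line was lower with cGAMP, at 0.559 (0.533 to 0.585), 0.727 (0.699 to 0.756) and 0.704 (0.661 to 0.749) of its control, although the WT/- cGAMP library still lay above the WT/HAQ control. The log2 fold change was -0.60 ± 0.10 (SE), with an adjusted p of 0.0462 in edgeR's quasi-likelihood test. The call was lost without the WT/HAQ pair (adjusted p = 0.114) or without the WT/- pair (0.315), and when the minimum mean count was 50 (0.0506), all with the same edgeR test.

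NFKB2 encodes p100, the precursor of p52 and the inhibitor of the non-canonical arm. NFKB2 (chromosome 10, 102394110 to 102402524, plus strand) had 2814 and 1429 normalized counts in the parent, 5238 and 4408 in WT/-, and 1365 and 1030 in HAQ/-, without and with cGAMP. The folds of 0.508 (0.477 to 0.54), 0.841 (0.806 to 0.878) and 0.754 (0.696 to 0.818) were all below 1, and the lowest was in the parent. The edgeR adjusted p was 0.112, and it was 0.0341 in edgeR without the HAQ/- pair.

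RELB, the partner of p52 in the non-canonical arm, and REL, the c-Rel subunit best known from lymphocytes, had the same direction in each line. RELB (chromosome 19, 45001461 to 45038192, plus strand) had 1354 and 752.8 normalized counts in the parent, 2094 and 1569 in WT/-, and 791.3 and 649.1 in HAQ/-. REL (chromosome 2, 60881491 to 60931612, plus strand) had 1451 and 585.5 in the parent, 2422 and 1503 in WT/-, and 585.4 and 481.6 in HAQ/-. For both genes the parent with cGAMP thus lay near the HAQ/- control. The REL fold was 0.404 (0.368 to 0.443) in the parent, 0.62 (0.579 to 0.665) in WT/- and 0.823 (0.73 to 0.928) in HAQ/-, and the RELB folds were 0.556, 0.749 and 0.82. Neither passed the edgeR test over the 3 lines (adjusted p = 0.0972 for REL and 0.0856 for RELB), and both passed it without the HAQ/- pair (0.0027 and 0.00881).

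Levels of different genes were compared per kb of their canonical transcript in GENCODE release 44. On that scale REL was the lowest member in every library, with 131 normalized counts per kb in the WT/HAQ control against 1276 for RELA, where the REL transcript of 11108 bases is the longest of the 10. The ratio of REL to RELA per kb, which does not depend on the scaling of the libraries, was 0.102 without and 0.042 with cGAMP in the parent, 0.15 and 0.083 in WT/-, and 0.0558 and 0.0491 in HAQ/-. The ratio of NFKB2 to NFKB1 moved less, with 0.836 and 0.759, 0.989 and 1.14, and 0.765 and 0.82 in the same order. The subunit messages thus stood at unequal distances from RELA in the 3 lines.

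NFKBIE, which encodes IκBε, was the other member called lower with cGAMP in the edgeR test. NFKBIE (chromosome 6, 44258166 to 44265788, minus strand) had 954.6 normalized counts without and 348.8 with cGAMP in WT/HAQ. It had 2896 and 1437 in WT/-, and 333.3 and 195.9 in HAQ/-. The folds were 0.365 (0.325 to 0.411), 0.496 (0.463 to 0.532) and 0.588 (0.492 to 0.702), which made it the 1 member at least 1.5-fold lower in all 3 lines, as were 1.35% of all genes. The log2 fold change was -1.09 ± 0.14 (SE), with an adjusted p of 0.0279 in edgeR's quasi-likelihood test, and an adjusted p of 0.315 in edgeR without the WT/- pair. Its control levels also lay far apart, 8.69-fold (7.81 to 9.66) higher in WT/- than in HAQ/-.

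NFKBIA encodes IκBα, the inhibitor that is degraded first and resynthesized as an early NF-κB target. NFKBIA (chromosome 14, 35401079 to 35404749, minus strand) had 2346 and 2148 normalized counts in the parent, 6961 and 7415 in WT/-, and 1050 and 778.3 in HAQ/-, without and with cGAMP. The fold was 0.916 (0.866 to 0.968) in the parent, 1.07 (1.03 to 1.1) in WT/- and 0.741 (0.675 to 0.813) in HAQ/-, so no line was past 1.5-fold in either direction. In edgeR's quasi-likelihood test the adjusted p was 0.47. The difference between the lines was far larger than that with cGAMP: the WT/- control had 6.63-fold (6.24 to 7.04) the level of the HAQ/- control. Per kb, NFKBIA stood at 3.07 times RELA in the WT/- control, 1.18 times in WT/HAQ and 0.713 times in HAQ/-, and at 2.92, 1.1 and 0.565 times with cGAMP.

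NFKBIB, which encodes IκBβ, had the lowest normalized count of the 10 in 5 of the 6 libraries, all but HAQ/- with cGAMP. NFKBIB (chromosome 19, 38899700 to 38908893, plus strand) had 521.5 and 251.9 normalized counts in the parent, 678.5 and 378 in WT/-, and 300.1 and 262.7 in HAQ/-. The folds were 0.483 (0.418 to 0.558), 0.557 (0.486 to 0.639) and 0.875 (0.742 to 1.03), and the last cannot be told from 1 at this depth. The edgeR adjusted p was 0.0935, and it was 0.00141 without the HAQ/- pair.

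NFKBIZ encodes IκBζ, a nuclear IκB that works with p50 on secondary targets, and it was the member with higher levels after cGAMP in all 3 lines. NFKBIZ (chromosome 3, 101827991 to 101861022, plus strand) had 731 normalized counts without and 1912 with cGAMP in WT/HAQ. It had 2145 and 3511 in WT/-, and 566.2 and 909.6 in HAQ/-. The 3 folds of 2.62 (2.41 to 2.84), 1.64 (1.55 to 1.73) and 1.61 (1.45 to 1.78) all exceeded 1.5, but the cGAMP libraries of WT/HAQ and HAQ/- lay below the WT/- control. The log2 fold change was 0.93 ± 0.16 (SE), and the adjusted p of 0.0516 in edgeR's quasi-likelihood test missed the threshold of 0.05. It was 0.0283 in edgeR when the minimum mean count was 1 and 0.00412 without the HAQ/- pair.

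TNFAIP3 encodes A20, the ubiquitin-editing enzyme that shuts off signalling to IKK, and it separated the lines most. TNFAIP3 (chromosome 6, 137867214 to 137883314, plus strand) had 10044 normalized counts in the WT/HAQ control, 30554 in the WT/- control and 1207 in the HAQ/- control, from 11363, 32740 and 1384 counts. The WT/- control had 25.3-fold (24.0 to 26.7) the level of the HAQ/- control, 3.04-fold (2.98 to 3.11) that of WT/HAQ, and HAQ/- had 0.12 (0.114 to 0.127) of the WT/HAQ level. With cGAMP the levels were 3675, 22054 and 477.3, and the WT/- library was 46.2-fold (42.0 to 50.8) above the HAQ/- library. The folds with cGAMP were 0.366 (0.353 to 0.38) in the parent, 0.722 (0.708 to 0.735) in WT/- and 0.395 (0.355 to 0.44) in HAQ/-. Of the 3 lines WT/- had the fold nearest to 1, a difference between lines that was not tested. The log2 fold change over the lines was -1.08 ± 0.21 (SE), with an adjusted p of 0.0633 in edgeR's quasi-likelihood test. It was 0.03 in edgeR with a minimum mean count of 1 and 0.013 without the HAQ/- pair.

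Per kb, TNFAIP3 was the most abundant of the 10 in the WT/HAQ and WT/- controls, with 2153 and 6550 normalized counts per kb. In the HAQ/- control it had 259 and ranked below NFKBIA, NFKB1, NFKB2, RELB and RELA, the last of which led with 945. The ratio of TNFAIP3 to RELA per kb was 1.69 in the parent, 4.5 in WT/- and 0.274 in HAQ/- without cGAMP, and 0.628, 2.9 and 0.116 with cGAMP. The protein-coding neighbours of TNFAIP3 on chromosome 6 were read beside it, a choice made with its values in view. The ratio of the WT/- to the HAQ/- control was 2.33 for IFNGR1 and 1.5 for ARFGEF3, and 0.886 for PERP, while OLIG3 had between 6 and 22 counts in a library. None of these neighbours came near the ratio of TNFAIP3.

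**Figure D2:**
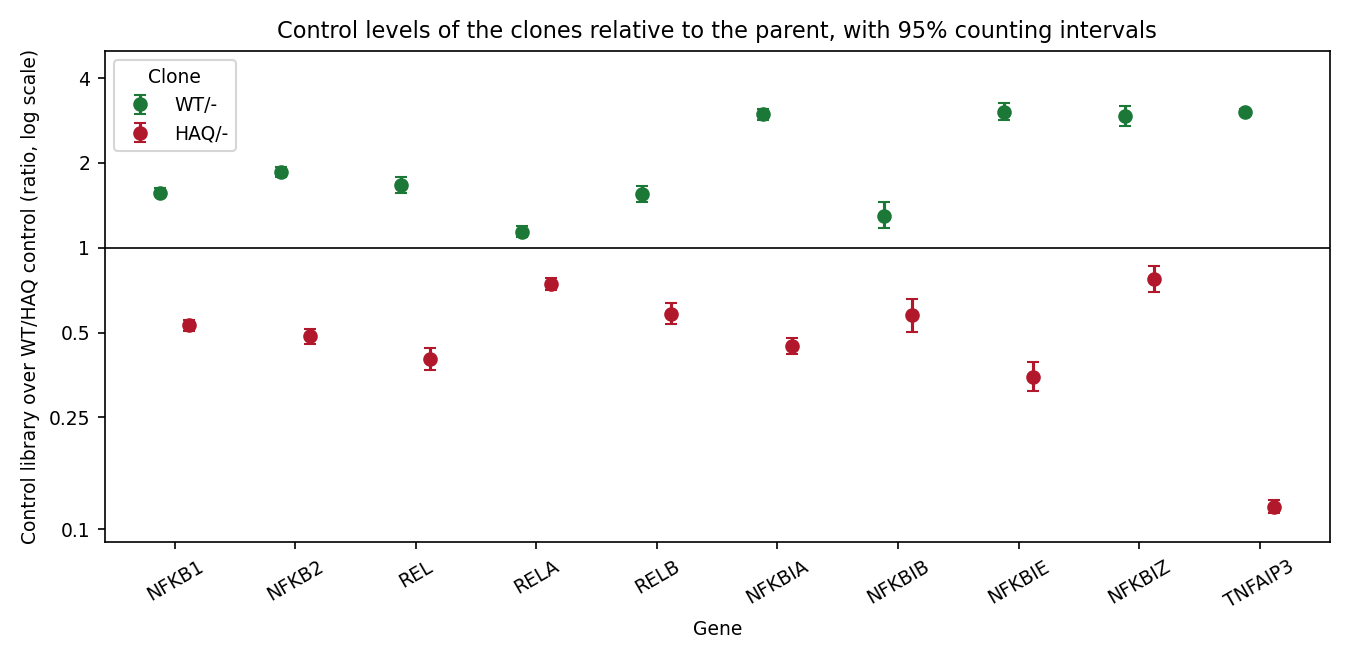
Ratio of each gene's normalized count in the WT/- (green) and HAQ/- (red) control libraries to that in the WT/HAQ control (log scale), with 95% Wilson intervals that cover counting error only. All WT/- ratios lie above 1, from 1.14 for RELA to 3.04 for TNFAIP3, and all HAQ/- ratios lie below 1, from 0.775 for NFKBIZ to 0.12 for TNFAIP3.

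In the controls, 8 of the 10 genes were at least 1.5-fold higher in WT/- than in WT/HAQ, as were 13.0% of all genes, and RELA and NFKBIB were the exceptions at 1.14 and 1.3. In HAQ/-, 8 of the 10 were at least 1.5-fold lower than in WT/HAQ, as were 8.64% of all genes, and RELA and NFKBIZ were the exceptions at 0.741 and 0.775. Both comparisons use the WT/HAQ control library. The median log2 ratio of the 10 genes was 0.82 for WT/- over WT/HAQ, -0.98 for HAQ/- over WT/HAQ and 1.93 for WT/- over HAQ/-. Over all genes the same medians lay between -0.02 and 0. In the cGAMP libraries 9 of the 10 were in the order WT/- above WT/HAQ above HAQ/-, as were 23.3% of all genes whatever their order in the controls, and the exception was NFKBIB, with 251.9 normalized counts in WT/HAQ and 262.7 in HAQ/-. STING1 was lower in both clones than in the parent, so its levels did not follow this order. In these bulk libraries, fewer cells that express a gene and less of its RNA per cell cannot be told apart.

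Within each line, cGAMP was compared with the control by the 1.5-fold threshold, with no test. In WT/HAQ, 7 of the 10 genes were at least 1.5-fold lower with cGAMP, as were 12.3% of all genes, and 1 was at least 1.5-fold higher, as were 12.9%. In WT/-, 3 were lower (REL, NFKBIB and NFKBIE) against 8.79% of all genes, and 1 was higher against 11.9%. In HAQ/-, 2 were lower (NFKBIE and TNFAIP3) against 5.79%, and 1 was higher against 6.77%. The gene on the higher side was NFKBIZ each time. The median log2 fold change of the 10 genes was -0.91 in the parent, -0.44 in WT/- and -0.35 in HAQ/-, where the medians over all genes lay between -0.01 and 0. Lower levels of any size in all 3 lines were found for 7 of the 10, against 26.5% of all genes, with RELA, NFKBIA and NFKBIZ outside.

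**Figure D3:**
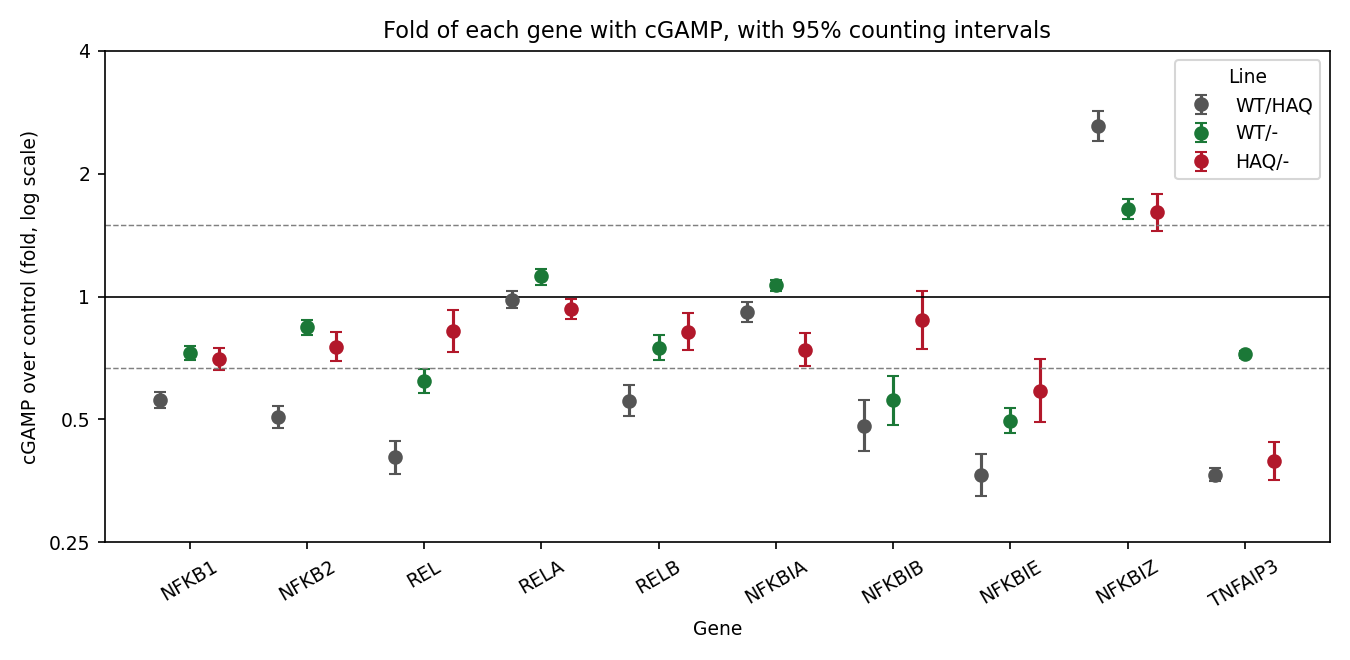
Fold of each gene with cGAMP over the control of the same line (log scale) in WT/HAQ (grey), WT/- (green) and HAQ/- (red), with 95% Wilson intervals that cover counting error only and dashed lines at 1.5-fold. NFKBIZ lies above the upper line in all 3 lines, NFKBIE lies below the lower line in all 3, and RELA and NFKBIA stay between the lines.

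In the test across the lines, 2 of the 10 genes (NFKB1 and NFKBIE) passed downwards, as did 0.959% of all genes, and 0 passed upwards, against 2.27%. At an unadjusted p under 0.05 in edgeR's quasi-likelihood test 7 were lower, as were 13.7% of all genes, and 1 was higher, against 11.6%. DESeq2 called 7 lower, against 3.93% of the genes it tested, and 1 higher, against 5.2%. RELA and NFKBIA were the genes that neither tool called. Without the HAQ/- pair edgeR called 7 lower, against 8.66% of all genes, and 1 higher, against 8.65%. It called 1 (NFKBIE) lower without the WT/HAQ pair, against 0.326%. Without the WT/- pair it called 0 of the 10 and 0% of all genes, and with the line left out of the model 0 of the 10 and 0.41% of all genes. Fits with a line left out leave 1 residual degree of freedom.

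The rest of the pathway was read from 5 lists of 69 genes, of which 63 were analysed. Of these, 5 passed the edgeR test upwards, against 2.27% of all genes, and 3 downwards, against 0.959%. The control order of WT/- above WT/HAQ above HAQ/- held for 38 of the 63, against 22.7% of all genes. Those that passed upwards were an adaptor, a suppressor of signalling, a pair of receptors and a death ligand, and those that passed downwards were inflammatory cytokines. The number of these genes called was 8 without the WT/HAQ pair, against 1.19% of all genes, 27 without the HAQ/- pair, against 17.3%, and 0 without the WT/- pair, a fit in which 0 of all genes passed.

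Among 22 kinases and adaptors on the way to IKK, 1 passed the edgeR test upwards, against 2.27% of all genes, and 0 downwards, against 0.959%. It was MYD88, the adaptor of the Toll-like and IL-1 receptors. MYD88 went from 127 to 586 normalized counts in the parent, from 119 to 401 in WT/- and from 105 to 252 in HAQ/-, with an edgeR adjusted p of 0.0184. At an unadjusted p under 0.05 in the edgeR fit, 3 of the 22 were higher, against 11.6% of all genes, and 8 lower, against 13.7%. DESeq2 called 2 higher, against 5.2% of the genes it tested, and 1 lower, against 3.93%. The median log2 fold changes of this list were -0.21 in the parent, -0.11 in WT/- and -0.10 in HAQ/-, nearer to 0 than those of the subunits and inhibitors.

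Among 18 ubiquitin enzymes and regulators, 17 of them analysed, 1 passed the edgeR test upwards, against 2.27% of all genes, and 0 downwards, against 0.959%. It was N4BP1, a suppressor of NF-κB signalling. N4BP1 went from 747 to 2047 normalized counts in the parent, from 903 to 2447 in WT/- and from 680 to 1547 in HAQ/-, with an edgeR adjusted p of 0.00584. At an unadjusted p under 0.05 in edgeR, 5 were higher, against 11.6% of all genes, and 5 lower, against 13.7%. DESeq2 called 4 higher, against 5.2% of the genes it tested, and 2 lower, against 3.93%. TNIP1, picked later from its values, encodes a binding partner of A20 and had 8008 and 12811 normalized counts in the parent, 12494 and 19019 in WT/-, and 4162 and 5012 in HAQ/-, with an edgeR adjusted p of 0.0633. Its levels thus lay on the other side of the control from those of TNFAIP3 in each line.

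None of the 5 genes of further IκB-like proteins and IκB-binding GTPases passed the edgeR test. There 1 was higher at an unadjusted p under 0.05, against 11.6% of all genes, and 2 lower, against 13.7%. DESeq2 called 0 higher, against 5.2% of the genes it tested, and 2 lower, against 3.93%. NFKBID, which encodes a nuclear IκB, had 129 and 47.5 normalized counts in the parent, 582 and 202 in WT/-, and 24.4 and 23 in HAQ/-, with an edgeR adjusted p of 0.0735. All 5 genes had the control order of the subunits and inhibitors, against 22.7% of all genes.

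Of 16 receptors, 12 were analysed, 2 passed the edgeR test upwards, against 2.27% of all genes, and 0 downwards, against 0.959%. TLR3, the endosomal receptor for double-stranded RNA, went from 11.5 to 125 normalized counts in the parent, from 35.5 to 232 in WT/- and from 19.2 to 87.6 in HAQ/-, with an edgeR adjusted p of 0.0145. IL1R1, the signalling receptor of IL-1, had folds of 1.73, 2.01 and 1.7 with an edgeR adjusted p of 0.013. In edgeR 2 were higher at an unadjusted p under 0.05, against 11.6% of all genes, and 3 lower, against 13.7%. DESeq2 called 2 higher, against 5.2% of the genes it tested, and 1 lower, against 3.93%.

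Of 8 ligands, 7 were analysed, of which 1 passed the edgeR test upwards, against 2.27% of all genes, and 3 downwards, against 0.959%. In that test 1 was higher at an unadjusted p under 0.05, against 11.6% of all genes, and 4 lower, against 13.7%. DESeq2 called 1 higher, against 5.2% of the genes it tested, and 3 lower, against 3.93%. TNFSF10, which encodes the death ligand TRAIL and is known as an interferon-response gene, had folds of 6.5, 3.45 and 5.41 (edgeR adjusted p = 0.00999). TNF fell from 661 to 178 normalized counts in the parent, from 4620 to 2010 in WT/- and from 154 to 70.1 in HAQ/- (edgeR adjusted p = 0.0229). IL1B, with folds of 0.222, 0.328 and 0.436, and IL1A, with folds of 0.328, 0.539 and 0.461, also fell (edgeR adjusted p = 0.0138 and 0.0268). LTB, a lymphotoxin subunit, had 22.1 and 10.5 normalized counts in the parent, 118 and 57.4 in WT/-, and 8.72 and 2.19 in HAQ/-, with an edgeR adjusted p of 0.0915. Neither of the remaining ligands passed the test, with folds of 2.82, 0.44 and 3.45 for IL33, at no more than 20 normalized counts in a library, and of 0.827, 1.28 and 1.25 for TNFSF12. The controls of the ligands that fell lay far apart, with IL1A at 14133 normalized counts in WT/- and 401 in HAQ/-.

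**Figure D4:**
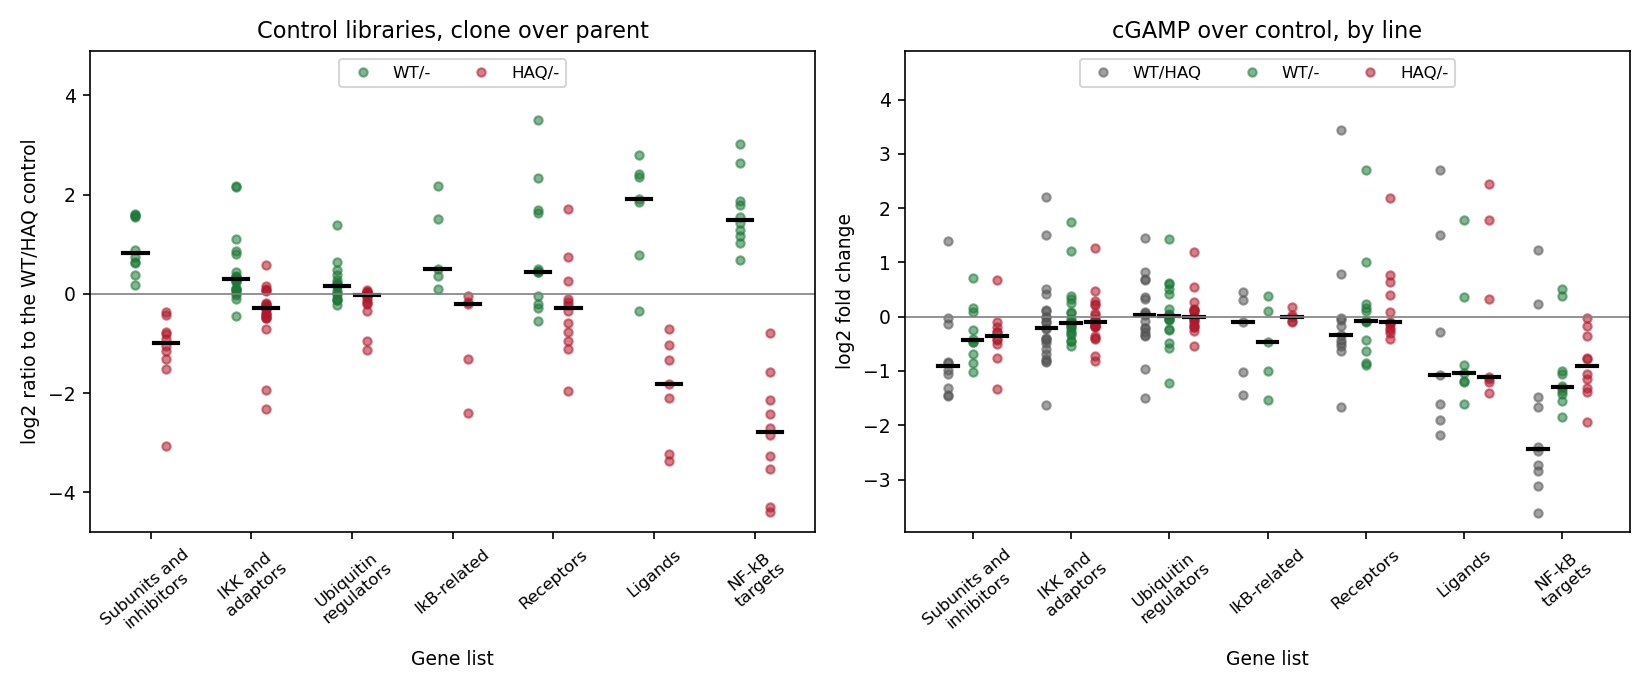
Left, log2 ratio of each gene's control level in WT/- (green) and HAQ/- (red) to that in WT/HAQ. Right, log2 fold change with cGAMP in WT/HAQ (grey), WT/- (green) and HAQ/- (red), with 1 point per analysed gene and a black bar at the list's median. The subunits and inhibitors, the ligands and the NF-κB targets have median control ratios above 0.8 in WT/- and below -0.9 in HAQ/-, while the medians of the kinases and adaptors, ubiquitin regulators and receptors lie between -0.3 and 0.5.

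NF-κB target genes outside the pathway, mostly chemokines and adhesion or survival genes, had lower median log2 fold changes than the members, with -2.43 in the parent, -1.29 in WT/- and -0.91 in HAQ/-. Of 12 listed, 10 were analysed, 7 passed the edgeR test downwards, against 0.959% of all genes, and 0 upwards, against 2.27%. In that test 8 were lower at an unadjusted p under 0.05, against 13.7% of all genes, and 0 higher, against 11.6%. DESeq2 called 7 lower, against 3.93% of the genes it tested, and 0 higher, against 5.2%. CXCL8, the neutrophil chemokine, went from 20328 to 2331 normalized counts in the parent, from 46002 to 17893 in WT/- and from 3138 to 822 in HAQ/- (edgeR adjusted p = 0.0463). CCL20 had 221 and 18.1, 1372 and 381, and 11.3 and 5.47 (0.0462), and CXCL3 had folds of 0.139, 0.342 and 0.405 (0.0458 in edgeR). IL6 and SOD2, picked after their values were seen, had folds of 2.33, 1.43 and 0.884 and of 1.18, 1.29 and 0.983, so the targets did not share 1 direction. All 10 analysed targets had the control order of WT/- above WT/HAQ above HAQ/-, against 22.7% of all genes, with median log2 ratios of 1.49 for WT/- and -2.77 for HAQ/- over WT/HAQ. Immediate-early genes, which respond to growth signals and stress, were listed beside them: 10 of 12 had this order (22.7% of all genes did), 3 fell and 0 rose in the edgeR test (0.959% and 2.27% of all genes did). There 8 were lower and 0 higher at an unadjusted p under 0.05, against 13.7% and 11.6% of all genes. DESeq2 called 5 lower and 0 higher, against 3.93% and 5.2% of the genes it tested. Whether the handling of the cells took part in these differences was not tested.

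The genes nearest to TNFAIP3 in their 3 log2 fold changes were taken by Euclidean distance among the 10775 genes averaging 100 counts or more, and 3 folds per gene carry no test. They were C8orf4, NR1D1 and IRAK2, at distances of 0.37, 0.37 and 0.41. IRAK2, a kinase-like adaptor of IL-1 receptor signalling, had 1664 and 602 normalized counts in the parent, 4213 and 2926 in WT/-, and 680 and 356 in HAQ/-. NR1D1, which encodes the clock repressor REV-ERBα, had 3278 and 1210, 4734 and 2913, and 2318 and 1124. All 3 had their highest control level in WT/- and their lowest in HAQ/-, as did TNFAIP3 and 22.7% of all analysed genes.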

How the data were processed

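Messenger RNA libraries were sequenced as paired-end reads from 6 samples, 1 per line and treatment, grouped by the sample titles. The authors deposited expected counts per gene, which are estimated counts without normalization. The submitters' processing notes name STAR, RSEM, GRCh38 and hg38, and their versions and the gene annotation are not given in the sources used here. RSEM shares reads that fit several genes, so counts of near-identical copies are uncertain. All 6 columns matched a sample title by library name, and 0 were left over.

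Counts were rounded to whole numbers (totals from 12444791 to 17608427) and scaled by TMM in edgeR 4.0.16 (R 4.3.3) over the 15126 genes that averaged 10 counts or more. Normalized counts refer to the geometric mean of the 6 scaled library sizes. Folds set counts under 3 to 3, had a threshold of 1.5, and carry 95% Wilson intervals. The effect of cGAMP came from edgeR's quasi-likelihood test, two-sided, with the line as a block, Benjamini-Hochberg adjustment over all 15126 genes and 2 residual degrees of freedom. Nothing in the sources says that libraries were replicate cultures, so p-values rest on the spread of the cGAMP effect between lines. DESeq2 1.42.0 was an alternative. Other alternatives were DESeq2 size factors, total counts only, libraries thinned to the smallest total, a mean count of at least 1 or 50, a floor of 10, a prior count of 2, folds of 2 and 1.2, no block, and each line left out. Tables were made with Python 3.11.15 (scipy 1.17.1, pandas 2.3.3, numpy 2.4.6) and figures with matplotlib 3.10.9.

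The members and the gene lists were chosen with earlier results of these data known. Genes named in the text were the 10 members, STING1, IFNB1, pathway genes that passed the test or lay past 1.5-fold in the same direction in all 3 lines (for a list with none, the gene with the largest mean absolute log2 fold change), the 3 NF-κB targets with the largest such mean, and the 3 genes nearest to the member with the largest such mean, which was TNFAIP3. Cell type markers came from a list, of which 1 gene is not reported here, and are named to check the cells. Other genes are marked as picked later. Gene positions and transcript lengths are from GENCODE release 44 on GRCh38, and promoter windows are from RefSeq (GRCh38.p14). On simulated counts for 14994 genes, the cGAMP test called 99 of 100 genes changed by 1 on the log2 scale, 100 of 100 changed by 2, and 11 unchanged genes.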

Additional observations from a re-analysis of the deposited data

Results flagged for a closer look

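RELA and NFKBIA were flagged because their folds with cGAMP pointed in opposite directions in different lines, each with a counting interval that left out 1. The RELA fold was 1.12 in WT/- and 0.934 in HAQ/-. The NFKBIA fold was 1.07 in WT/-, against 0.916 in WT/HAQ and 0.741 in HAQ/-. With total counts only, the NFKBIA log2 fold change in WT/- was 0.0292 instead of 0.0912, outside its counting interval. With 1 library per line and treatment, these differences between lines were not tested.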

How the results depend on the processing

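The count of the 10 genes called in the cGAMP test, 2 in the edgeR fit, was 4 with genes of a mean count of at least 1 (3 lower, against 2.05% of all genes, and 1 higher, against 2.78%), 1 at a mean count of at least 50 (lower, against 0.852%), 8 in the DESeq2 test and 0 with no replicate block for the line, and it ranged from 0 to 8 when each line was left out (0 without WT/-, 1 without WT/HAQ, 8 without HAQ/-). The count over the pathway lists was 8 in the edgeR fit. At a mean count of at least 1 it was 15 (8 higher, against 2.78% of all genes, and 7 lower, against 2.05%). It was 18 in the DESeq2 test (9 higher, against 5.2%, and 9 lower, against 3.93%) and 0 with no replicate block (against 0.41%). Over the lines left out it ranged from 0 without WT/- (against 0%) to 27 without HAQ/- (against 17.3%). With a fold of 2 the genes lowered were 4 in the parent, 1 in WT/- and 1 in HAQ/- (against 5.36%, 3.48% and 1.94% of all genes), those raised were 0 in WT/- and 0 in HAQ/- (against 6.58% and 3.11%), and those past the fold between controls were 4 for WT/- and 5 for HAQ/- against WT/HAQ, where 5.72% and 3.88% of all genes lay. With a fold of 1.2 the genes lowered were 6 in WT/- and 7 in HAQ/-, against 22.5% and 17.3% of all genes. The median log2 fold change of the 10 genes lay from -0.94 to -0.89 in WT/HAQ, from -0.50 to -0.44 in WT/- and from -0.37 to -0.33 in HAQ/- over 5 alternatives each. Of 120 member folds under alternatives, 116 stayed within the counting interval and 4 moved, all in WT/- with total counts only, and 0 reversed. The effect of the genotype cannot be told apart from that of the clone, and the spread between cultures was not measured. Rare genes limit the lists: 6 of the 69 pathway genes were not analysed.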
